A study of Solanum lycopersicum with 6 samples.

Results

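Gibberellin synthesis and perception in tomato leaf were followed through 10 genes, taken by identifier from a table of 35768 gene models. They are 4 GA20ox genes and 2 GA3ox genes of gibberellin synthesis, 3 GID1 receptor genes, and PROCERA, the DELLA gene. The 10 genes were chosen by name and not by their values, although earlier results of these data were known. Leaves of Solanum lycopersicum were profiled in 6 libraries, 2 each of the kinds called LTM, CHX and mRNA. All plants were grown at 28 °C with 12 h of light a day, and true leaves were taken. One label gives the leaves an age of 3 weeks and another gives the plants 2 weeks, and the cultivar is not given in the sources used here. In LTM and CHX libraries the footprints of ribosomes were sequenced, which are stretches of 26 to 32 nt that a bound ribosome protects while RNase digests the rest of an mRNA. LTM libraries come from leaves treated with LTM, whose extracts also received puromycin, and stand for initiating ribosomes. The labels do not spell LTM out; in initiation profiling the letters stand for lactimidomycin, which holds ribosomes at start codons, while puromycin releases elongating ones. CHX libraries come from extracts with 100 µg/ml cycloheximide, an inhibitor of elongation, and stand for elongating ribosomes. For the mRNA libraries, total RNA was purified from a portion of the cycloheximide extract and rRNA was removed. None of the 6 libraries holds mRNA of LTM-treated leaves, so mRNA levels after LTM treatment are not known here.

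Gibberellins are plant hormones that promote stem elongation, leaf expansion and germination. GA20ox enzymes carry out successive oxidations late in synthesis, and GA3ox enzymes then make the bioactive hormone. The hormone binds the soluble receptor GID1, which in this state takes hold of a DELLA protein and leads it to ubiquitination and degradation. DELLA proteins are nuclear regulators that restrain growth, and tomato plants that lack PROCERA function are tall and slender, as if treated with gibberellin. The pathway is known for feedback, in which active hormone lowers the transcripts of GA20ox, GA3ox and GID1 genes and DELLA activity raises them.

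Total counts were 18240140 and 38983295 in the LTM libraries, 48704200 and 47856048 in the CHX libraries, and 24810169 and 30371574 in the mRNA libraries. The 10 genes together took 0.0147% and 0.0149% of LTM counts, 0.0177% in each of the CHX libraries, and 0.0178% and 0.0189% of mRNA counts. Levels are CPM (counts scaled to a common library total, with no scaling factor beside the total), given as replicate 1 and replicate 2 or as mean ± SD of 2 libraries. Whether a replicate is a separate set of plants is not stated, and the p-values reflect no more than the spread among these 6 libraries, which may be technical. In whole leaves, fewer cells that express a gene and less RNA per cell cannot be told apart. Counting was restricted to coding regions for footprints but took whole transcript regions for mRNA. A ratio of footprints to mRNA therefore also depends on the untranslated share of a transcript. LTM stands for ribosomes at start codons and CHX for elongating ones, so a ratio of LTM to CHX may also depend on coding length. This was not tested. Leaf markers were not checked here, because the files pair no identifier with a name.

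Of the 10 genes, 7 passed the filter on low counts, and each of these was over the filter's cutoff of 0.288 CPM in all 3 kinds of library. The other 3 were nearly without counts and were not tested. Fold changes below come from edgeR's quasi-likelihood test on 20806 models with TMM scaling (factors that set the bulk of models at no change), and a call is a Benjamini-Hochberg adjusted p under 0.05. In CHX vs mRNA 2 of the 7 genes were higher and 2 lower, against 22.5% of all models higher and 27.4% lower. In LTM vs CHX 1 was higher and 3 lower, against 22.4% and 19.6% of all models. With library totals as the scale, 3 were higher and 2 lower in LTM vs CHX, against 5812 and 1228 of all 20806 models. In LTM vs mRNA 3 were higher and 4 lower, against 25.5% and 27.4% of all models. The 3 comparisons share libraries and are not independent of each other. In CHX vs mRNA the number of these genes called higher was 1 when either CHX replicate or mRNA replicate 1 was left out, and 0 without mRNA replicate 2. The number called lower was 1 without any one of these 4 libraries. In LTM vs CHX the numbers called higher and lower also changed when some single libraries were left out.

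**Figure D1:**
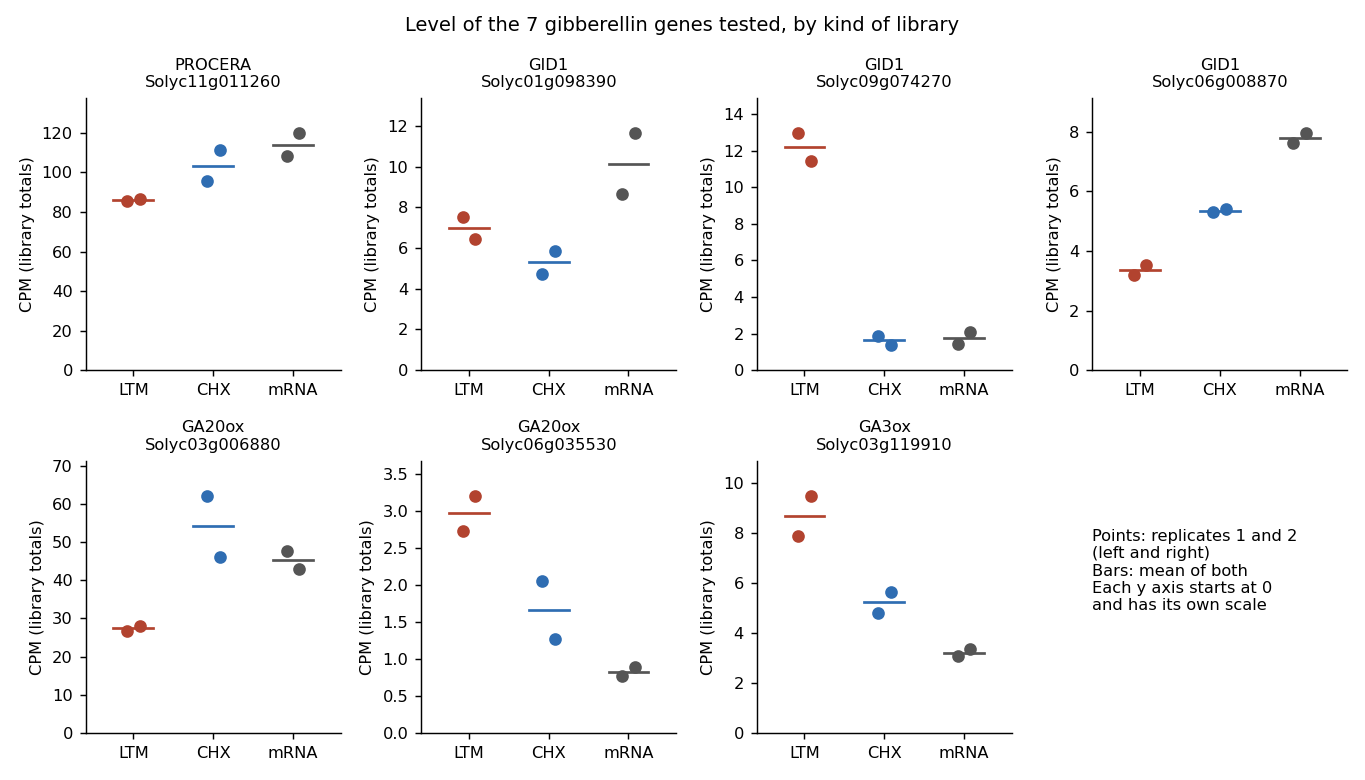
Level in CPM on library totals of the 7 genes tested, with 1 panel per gene, its own y axis from 0, points for replicates 1 and 2 and a bar for their mean. Solyc09g074270 lay at 12.9 and 11.4 CPM in LTM and at or below 2.11 CPM in CHX and mRNA, while Solyc06g008870 was lowest in LTM, at 3.18 and 3.51 CPM.

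Synthesis genes differed among themselves in which kind of library they were high. The GA20ox gene Solyc03g006880 was lower in LTM than in CHX and mRNA, whereas the GA20ox gene Solyc06g035530 and the GA3ox gene Solyc03g119910 were higher in both footprint kinds than in mRNA.

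Solyc03g006880, a GA20ox gene, had 26.8 and 27.9 CPM in LTM, 62.0 and 46.2 CPM in CHX, and 47.6 and 43.0 CPM in mRNA. Both LTM libraries lay below all 4 others, and the CHX and mRNA ranges overlapped. It fell 2.43-fold in LTM vs CHX (log2 fold change -1.28, SE 0.215, edgeR adjusted p = 0.00266) and 2.02-fold in LTM vs mRNA (-1.01, SE 0.214, edgeR adjusted p = 0.00517). Of all tested models, 97.0% had a higher LTM vs CHX value. Its CHX vs mRNA value was 0.27 on the log2 scale (SE 0.211, edgeR adjusted p = 0.320). Without CHX replicate 1 that value was -0.016, and with only models of at least 10 CPM in 2 libraries it was -0.0090, and no setting brought it past the threshold.

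The GA20ox gene Solyc06g035530 was scarce, with 50 and 125 counts in LTM, 100 and 61 in CHX, and 19 and 27 in mRNA. These are 2.74 and 3.21 CPM in LTM, 2.05 and 1.27 CPM in CHX, and 0.766 and 0.889 CPM in mRNA. The 3 kinds did not overlap, with LTM highest and mRNA lowest. Against mRNA it rose in LTM (log2 fold change 1.59, SE 0.33, edgeR adjusted p = 0.00476) and in CHX (1.03, SE 0.331, edgeR adjusted p = 0.0326). The CHX vs mRNA call was lost in 4 settings. Its edgeR adjusted p was 0.178 without CHX replicate 1, where the log2 fold change was 0.59, and it was 0.106 without mRNA replicate 1 and 0.133 without mRNA replicate 2. DESeq2 gave an adjusted p of 0.0567, and over all settings the adjusted p ran from 0.0111 to 0.178. LTM and CHX did not differ past the threshold (log2 fold change 0.55, SE 0.291, edgeR adjusted p = 0.162). Leaving out CHX replicate 1 put the log2 value at 0.99, leaving out CHX replicate 2 put it at 0.20, and library totals gave 0.85. Its adjusted p ran from 0.0436 to 0.591 over the settings and was under the threshold without CHX replicate 1 (0.0436) and with library totals (0.0457).

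Solyc03g119910, the GA3ox gene that passed the filter, had 7.89 and 9.49 CPM in LTM, 4.83 and 5.64 CPM in CHX, and 3.06 and 3.36 CPM in mRNA. Its libraries fell in the order LTM, CHX, mRNA with no overlap between kinds. It rose 2.26-fold in LTM vs mRNA (log2 fold change 1.18, SE 0.179, edgeR adjusted p = 0.00104) and 1.65-fold in CHX vs mRNA (0.72, SE 0.178, edgeR adjusted p = 0.012). The CHX vs mRNA call was lost without CHX replicate 2 (edgeR adjusted p = 0.0538) and without mRNA replicate 2 (0.0813), in a range of 0.00502 to 0.0813 over all settings. LTM vs CHX missed the threshold (log2 fold change 0.46, SE 0.169, edgeR adjusted p = 0.0617). It passed when replicate number was added to the fit as a block (0.45, edgeR adjusted p = 0.0347). No label says that equal replicate numbers mark 1 extract. The log2 value was 0.27 without LTM replicate 2, 0.60 without LTM replicate 1 and 0.74 with library totals. Its adjusted p was 0.0371 without LTM replicate 1 and 0.0163 with library totals, in a range of 0.0163 to 0.309.

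The remaining synthesis genes were at the limit of detection. The GA3ox gene Solyc06g066820 had 0 counts in both LTM libraries, 4 and 1 counts in CHX, and 1 and 2 counts in mRNA. The ratio of its summed CHX to mRNA counts, on library totals, was 0.953 with a 95% exact binomial interval of 0.185 to 6.13. The GA20ox gene Solyc01g093980 had 1 count in each LTM library, 1 and 0 in CHX, and 0 and 2 in mRNA. The GA20ox gene Solyc11g072310 had 1 count in all, in CHX replicate 2. A count of 0 over both libraries of a kind allows up to 3 counts, which is 0.0524 CPM in LTM, 0.0311 CPM in CHX and 0.0544 CPM in mRNA. Intervals and limits cover counting error only. Differences between kinds of library were not detectable for these genes at this depth.

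Solyc03g006880 held most GA20ox counts in every library, and its share was smallest in LTM. Shares are of counts not divided by gene length, so they are set against each other across kinds of library and not between genes. Across kinds they still depend on what was counted, coding regions for footprints and whole transcript regions for mRNA. How far lengths shape these differences was not tested. The share of Solyc03g006880 in the 4 genes' counts was 90.1% ± 0.661 in LTM, 97.0% ± 0.359 in CHX and 98.1% ± 0.416 in mRNA (SD, n = 2). Solyc06g035530 held 9.26% and 10.3% in LTM, 3.20% and 2.68% in CHX, and 1.58% and 2.02% in mRNA. The 3 kinds did not overlap in this share, which needs no scaling between libraries. With 2 libraries against 2 no exact permutation test can go below p = 0.333, so shares are given without a test.

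Receptor genes split by kind of library. Solyc09g074270 was several-fold higher in LTM than in both other kinds, Solyc06g008870 was lower in LTM than in both, and Solyc01g098390 was lower in both footprint kinds than in mRNA. The GID1 genes are related in sequence, as are the GA20ox genes, and how reads that match several models were counted is not given in the sources used here, so values of close relatives are uncertain.

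Solyc09g074270 had 12.9 and 11.4 CPM in LTM, 1.89 and 1.38 CPM in CHX, and 1.45 and 2.11 CPM in mRNA. Both LTM libraries lay far above the other 4, which overlapped. In counts these are 236 and 446 in LTM, 92 and 66 in CHX, and 36 and 64 in mRNA. It rose 6.05-fold in LTM vs CHX (log2 fold change 2.60, SE 0.22, edgeR adjusted p = 7.59e-05) and 5.66-fold in LTM vs mRNA (2.50, SE 0.228, edgeR adjusted p = 7.34e-05). Both calls held in all 14 other settings, where the LTM vs CHX value ran from 2.34 to 2.89. Of all tested models, 7.79% had a higher LTM vs CHX value. Its CHX vs mRNA value was -0.10 (SE 0.24, edgeR adjusted p = 0.761), turning to 0.16 without CHX replicate 2 and to 0.075 without mRNA replicate 2.

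Solyc06g008870 was lowest in LTM, with 3.18 and 3.51 CPM in LTM, 5.30 and 5.39 CPM in CHX, and 7.62 and 7.94 CPM in mRNA. No 2 kinds overlapped, and replicates lay close together. It fell 1.93-fold in LTM vs CHX (log2 fold change -0.95, SE 0.166, edgeR adjusted p = 0.00318) and 2.79-fold in LTM vs mRNA (-1.48, SE 0.168, edgeR adjusted p = 0.000224). It also fell 1.44-fold in CHX vs mRNA (-0.53, SE 0.158, edgeR adjusted p = 0.0254). This last call was lost without any one of the libraries compared, at an edgeR adjusted p of 0.0772 and 0.107 when CHX replicates 1 and 2 were left out in turn, and 0.164 and 0.0641 when mRNA replicates 1 and 2 were. DESeq2 gave an adjusted p of 0.0699, and the range over all settings was 0.0151 to 0.164.

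Solyc01g098390 had 7.51 and 6.46 CPM in LTM, 4.74 and 5.87 CPM in CHX, and 8.67 and 11.6 CPM in mRNA. Both mRNA libraries lay above all footprint libraries. It fell 1.88-fold in CHX vs mRNA (log2 fold change -0.91, SE 0.156, edgeR adjusted p = 0.00246), a call held in all 13 other settings that could be fitted. It fell 1.75-fold in LTM vs mRNA (-0.81, SE 0.158, edgeR adjusted p = 0.00349), where library totals gave -0.55 and an adjusted p of 0.056, the highest of a range from 0.00107. In CPM both LTM libraries lay above both CHX libraries, but the fitted LTM vs CHX value was 0.10 on the log2 scale (SE 0.158, edgeR adjusted p = 0.630). This value was 0.39 with library totals (edgeR adjusted p = 0.201) and -0.0011 without CHX replicate 1.

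Among the counts of the 3 receptors, Solyc09g074270 held 54.8% and 53.4% in LTM, against 15.8% and 10.9% in CHX and 8.18% and 9.73% in mRNA. Its LTM shares stood apart from the others, and the 95% exact binomial interval of the lower one was 49.96% to 56.8%. The share of Solyc06g008870 was 13.5% and 16.4% in LTM, 44.4% and 42.6% in CHX, and 42.95% and 36.6% in mRNA, so that only LTM stood apart. The share of Solyc01g098390 was 31.8% and 30.2% in LTM, 39.8% and 46.4% in CHX, and 48.9% and 53.6% in mRNA, with no overlap between kinds. For Solyc01g098390 the 95% exact binomial intervals of CHX replicate 2 (42.4% to 50.5%) and mRNA replicate 1 (44.1% to 53.6%) did overlap. So did those of LTM replicate 1 (27.4% to 36.4%) and CHX replicate 1 (35.75% to 43.9%). These shares need no scaling between libraries, but between footprints and mRNA they also depend on the untranslated share of each transcript. Between LTM and CHX they may also depend on the coding length of each gene, which was not tested.

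**Figure D2:**
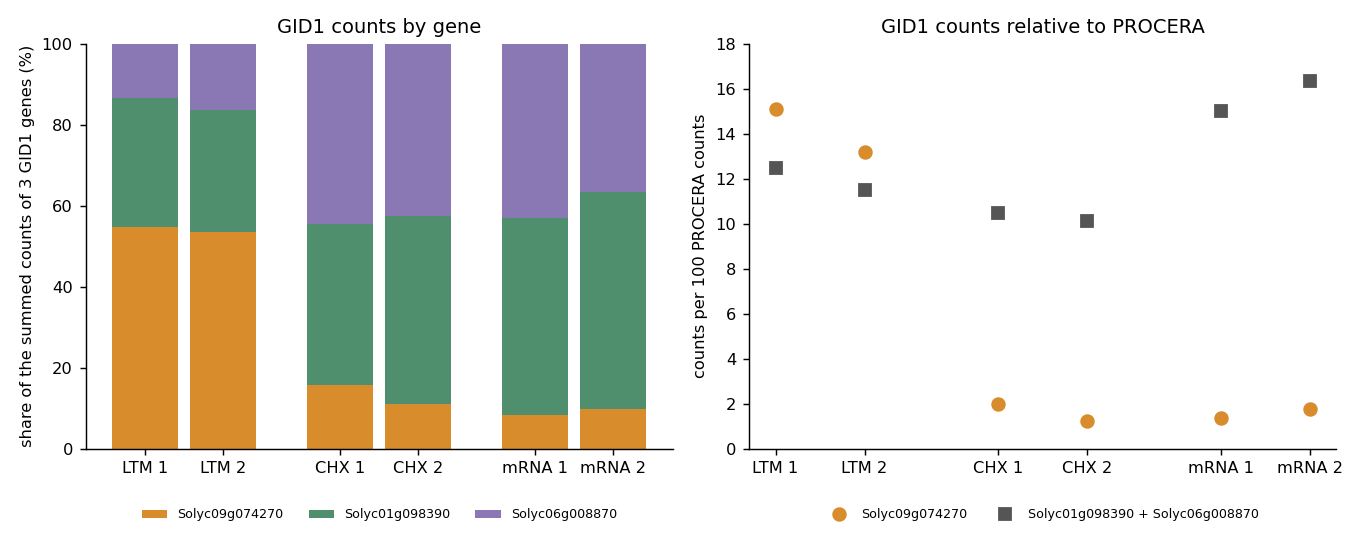
Left, share in percent of the summed counts of the 3 GID1 genes held by each gene in each of the 6 libraries. Right, counts of Solyc09g074270 and summed counts of the other 2 GID1 genes per 100 PROCERA counts in the same libraries; Solyc09g074270 reached 15.1 and 13.2 in LTM and at most 1.97 in CHX and mRNA.

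PROCERA (Solyc11g011260), the growth repressor that the receptors act on, was lower in LTM than in both other kinds, and CHX and mRNA did not differ past the threshold. It had 85.6 and 86.7 CPM in LTM, 95.9 and 111 CPM in CHX, and 108 and 120 CPM in mRNA. Both LTM libraries lay below the other 4, and CHX and mRNA overlapped. It fell 1.60-fold in LTM vs mRNA (log2 fold change -0.68, SE 0.14, edgeR adjusted p = 0.00459) and 1.47-fold in LTM vs CHX (-0.55, SE 0.14, edgeR adjusted p = 0.0157). CHX vs mRNA was -0.13 (SE 0.139, edgeR adjusted p = 0.475), near the median of all models at -0.02. With only models of at least 10 CPM this value was -0.40 with an adjusted p of 0.0463, in a range of 0.0463 to 0.804.

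PROCERA's calls in LTM were sensitive to scaling. With library totals as the scale, LTM vs CHX values shifted upward for the models as a whole (median log2 shift 0.29), which left PROCERA at -0.26 (adjusted p = 0.335), and at -0.40 in LTM vs mRNA (adjusted p = 0.107, range 2.38e-05 to 0.107). The LTM vs CHX adjusted p was also 0.0712 with only models of at least 10 CPM, 0.0553 when LTM replicate 1 was left out, 0.0723 without CHX replicate 2 and 0.0509 without mRNA replicate 2, in a range of 0.000786 to 0.335.

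Receptor counts set against PROCERA counts within a library are free of scaling between libraries. They still depend on gene length and on what was counted, coding regions for footprints and whole transcript regions for mRNA. They also move with PROCERA itself, whose CPM was lower in LTM than in both other kinds. How far these points shape the differences between kinds was not tested. The 3 GID1 genes together had 27.6 and 24.7 counts per 100 PROCERA counts in LTM, 12.4 and 11.4 in CHX, and 16.4 and 18.1 in mRNA. The kinds did not overlap. Solyc09g074270 alone gave 14.2 ± 1.36 in LTM, 1.61 ± 0.516 in CHX and 1.55 ± 0.297 in mRNA (SD, n = 2). The other 2 receptor genes gave 12.0 ± 0.693 in LTM, 10.3 ± 0.233 in CHX and 15.7 ± 0.919 in mRNA. The 6 synthesis genes gave 43.8 and 46.9 in LTM, 71.95 and 47.9 in CHX, and 47.5 and 39.6 in mRNA, and the CHX replicates lay further apart than the kinds did.

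**Figure D3:**
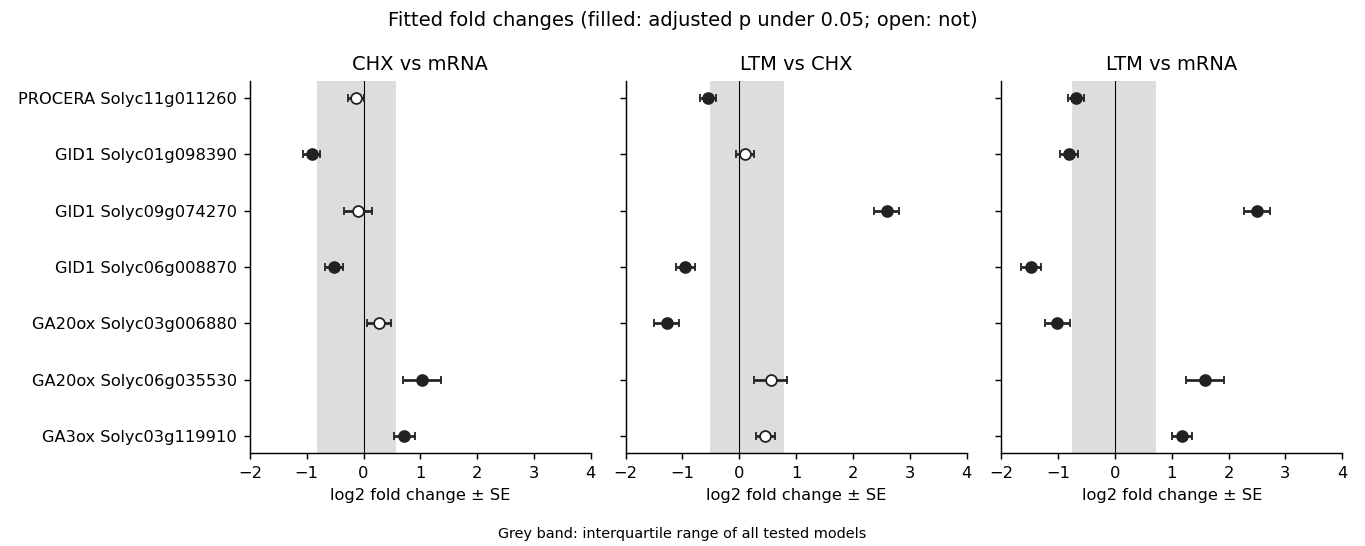
Fitted log2 fold change ± SE of the 7 genes in the 3 comparisons, with the interquartile range of the 20806 tested models as a grey band and filled points for an adjusted p under 0.05. All 7 genes are filled in LTM vs mRNA, where Solyc09g074270 lies at 2.50 and Solyc06g008870 at -1.48.

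Across the 7 genes the log2 values spanned -0.91 to 1.03 in CHX vs mRNA, -1.28 to 2.60 in LTM vs CHX and -1.48 to 2.50 in LTM vs mRNA. Their medians were -0.10, 0.10 and -0.68, against -0.02, -0.01 and 0.02 over all tested models. The interquartile range of all models ran from -0.81 to 0.56 in CHX vs mRNA, from -0.49 to 0.77 in LTM vs CHX and from -0.74 to 0.70 in LTM vs mRNA. By family, the median LTM vs mRNA value was -0.81 over the 3 GID1 genes and 0.29 over the 2 GA20ox genes tested, and each of these families held a gene called higher and a gene called lower.

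**Figure D4:**
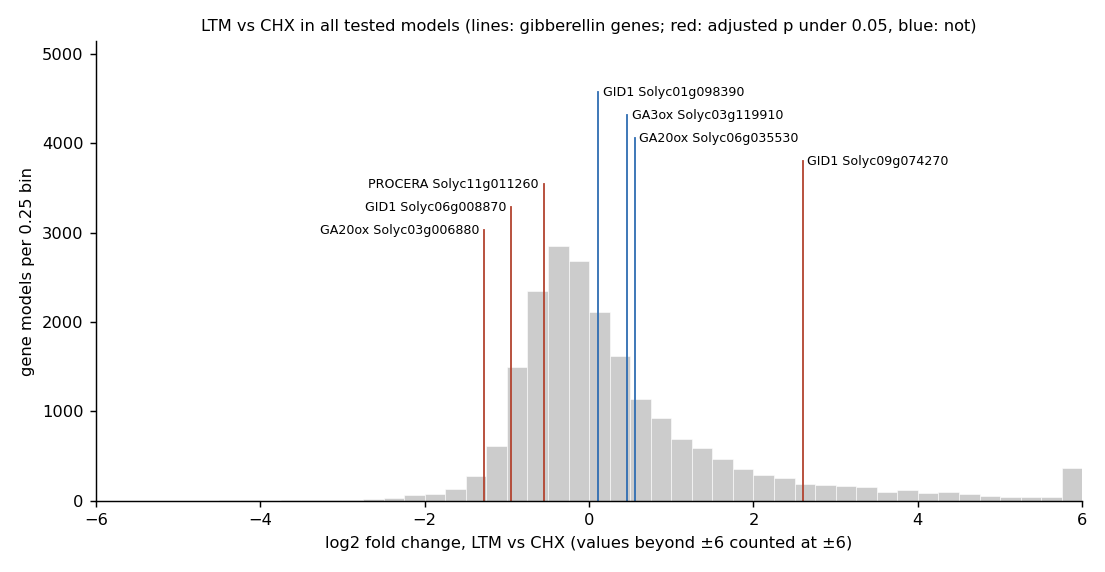
Number of gene models per bin of 0.25 in the LTM vs CHX log2 fold change over all tested models, with lines at the 7 gibberellin genes, red where the adjusted p was under 0.05 and blue where it was not. The distribution has a longer right side, in which Solyc09g074270 stands at 2.60, and Solyc03g006880 at -1.28 stands near its left edge.

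The profile nearest to that of PROCERA over the 6 libraries was that of Solyc02g079970.3.1, by the root mean square difference in log2 CPM of 0.13, followed by Solyc02g087230.3.1 at 0.14. The first had 98.5 and 78.6 CPM in LTM, 89.5 and 98.9 CPM in CHX, and 111 and 113 CPM in mRNA. The files give neither model a name.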

How the data were processed

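The authors deposited raw counts per gene model as whole numbers for each of the 6 libraries, sequenced as 75-bp single-end reads. The mRNA columns are headed as transcript region and the footprint columns as coding region, per the file headers. Not given in the sources used here are the genome build and annotation, the aligner, the counter and how reads matching several models were handled. Groups and replicates follow the sample titles, and all 10 genes are named.

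R 4.3.3 with edgeR 4.0.16 was used, with limma 3.58.1 loaded and DESeq2 1.42.0 as an alternative. filterByExpr kept 20806 models. One quasi-likelihood model (glmQLFit, glmQLFTest) with TMM factors of 0.863 to 1.16 was fitted to all libraries, with 3 residual degrees of freedom, two-sided tests and adjustment over all models kept. TMM sets changes relative to the bulk of models, so fitted folds differ from ratios of CPM on library totals. The SE given with a fitted log2 fold change is the size of that value divided by the square root of the test's F statistic. The biological coefficient of variation was 0.175. The fit was also run on counts simulated from a shared mean profile with a fixed spread. Such counts cannot test the scaling between kinds or the spread of these libraries. Profile distances used log2 CPM with a prior count of 2.

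Members and lists were chosen with earlier results of these data known, and receptor counts per PROCERA count and classes by mRNA level were added after the values were seen. A list of further pathway genes and leaf markers was not used, because the deposited table names no gene and 0 of 41476 entries of the RefSeq gene table (SLM_r2.1) carry its identifiers. Alternatives were other scaling, filters, DESeq2, fits to the 2 kinds compared, a replicate block and leaving out each library.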

Additional observations from a re-analysis of the deposited data

How the results depend on the processing

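Of 282 alternative fold changes of the 7 genes, 253 kept direction and call, 18 lost the call, 6 gained one and 5 changed sign. Those 5 were never past the threshold: Solyc03g006880 in CHX vs mRNA (-0.0090 with at least 10 CPM, and -0.016 to 0.51 over left-out libraries, lowest without CHX replicate 1), Solyc01g098390 in LTM vs CHX (-0.0011 to 0.20 over left-out libraries, lowest without CHX replicate 1) and Solyc09g074270 for CHX against mRNA (-0.40 to 0.16 over left-out libraries, with 0.16 when CHX replicate 2 and 0.075 when mRNA replicate 2 was left out). All 54 shares of families stayed within 1 SD, as 2 replicates must, and the nearest PROCERA profiles were the same 2 models with a prior count of 0.5.

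Requiring at least 10 CPM in 2 libraries left 8292 models and 3 of the genes. For CHX vs mRNA this filter gave 1700 models higher and 2334 lower, with 0 genes higher and 1 lower. For LTM vs CHX it gave 2222 and 1717 models, with 1 gene higher and 1 lower. For LTM vs mRNA it gave 2454 and 2292 models, with 1 gene higher and 2 lower. These counts were smaller in part because fewer models were tested. Library totals gave 1228 models lower and 3 genes higher in LTM vs CHX, and 2 genes lower in LTM vs mRNA. They put 82.6% of LTM vs CHX calls upward, against 53.3% with TMM, and 62.2% against 48.2% in LTM vs mRNA, after median shifts of 0.29 and 0.27. DESeq2 gave 1 gene higher and 1 lower in CHX vs mRNA. Leaving out 1 library gave 2676 to 4920 models higher, 0 to 2 genes higher and 1 to 2 lower in CHX vs mRNA. For LTM vs CHX it gave 2482 to 3520 models lower and 1 to 2 genes higher. Beyond fewer libraries and models, the cause was not tested.

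The labels say that mRNA was taken from a portion of the CHX extract, without saying that equal replicate numbers mark 1 extract, so pairing was not used. Deviations from the group means correlated across models at 0.356 for CHX and mRNA, 0.338 for LTM and CHX and 0.207 for LTM and mRNA. With a replicate block, CHX vs mRNA had 5623 models higher and 6326 lower, LTM vs CHX had 5330 and 5297, and LTM vs mRNA had 6062 and 6313. The block raised the genes higher in LTM vs CHX to 2 by adding Solyc03g119910 (adjusted p = 0.0347). Depth leaves only limits for the 3 genes with 1 to 8 counts over all libraries.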

Other observations

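LTM vs CHX values varied with the mRNA level of a model over the whole table, so each gibberellin gene was also placed among models of its own mRNA class, in CPM on library totals and as a description. Models with an mRNA level under 0.1 CPM (662 models), which could pass the filter through their footprints alone, had a median log2 LTM vs CHX value of 2.17. At 0.1 to 1 CPM (3996 models) it was 0.61. Models of this class that lay under the filter's cutoff of 0.288 CPM in mRNA could also pass through their footprints alone. That median was 0.04 between 1 and 10 CPM (9654 models), -0.33 between 10 and 100 CPM (5655 models) and -0.42 above that (839 models). CPM is not divided by length, and the mRNA was taken from a portion of the CHX extract, so the classes are not independent of the ratio. The receptor gene Solyc09g074270 lay near the top of its class from 1 to 10 CPM, with 5.37% of models above it, and Solyc06g008870 lay near the bottom of the same class, with 5.76% of models below it. The GA20ox gene Solyc03g006880 was near the bottom of the class from 10 to 100 CPM, with 2.76% below. PROCERA, at -0.55, was in the middle of the class at 100 CPM or more, with 40.6% of models below it. The GA20ox gene Solyc06g035530 was in the middle of the class from 0.1 to 1 CPM, with 48.3% below. Solyc03g119910 had 68.3% of its class from 1 to 10 CPM below it, and Solyc01g098390 had 75.1% of its class from 10 to 100 CPM below it. The mRNA level of Solyc01g098390, 8.67 and 11.6 CPM, lay on both sides of the bound at 10 CPM, so its class is uncertain. Its LTM vs CHX value was 0.10, close to the median of 0.04 in the class from 1 to 10 CPM.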
